A study of Mus musculus with 2 samples.

Results

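Gm49794 is a lincRNA gene on mouse chromosome 17 whose reads made it the leading annotated source of piRNA-size RNA in these testes. It has 1 annotated transcript of 13039 nt. Its members are all reads of 24 to 32 nt that matched this transcript exactly on either strand, and they were 26249 distinct sequences with 741688 reads in the KO-file table and 721476 reads in the het-file table. By reads shared over their places it ranked 1st of 35273 annotated genes with reads. It was chosen by its number of piRNA-size reads in these same tables, so its level is a description.

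The study sequenced small RNA from testes of C57BL/6 mice at 23 days post partum (dpp), with 1 sample labelled Stambp-ps1-/- and 1 labelled Stambp-ps1+/-, and no wild-type sample was analysed here. The small RNA was size-selected on a gel, from 15 up to 40 nt, and the libraries kept the strand of the RNA. The record lists both deposited count tables under the Stambp-ps1-/- sample, so they are called the KO-file and het-file tables here and neither is assigned to a genotype. Each table is 1 library. No difference between them could be tested, the intervals given cover counting error only, and reads amplified by PCR with no molecular identifier may be copies of 1 molecule.

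piRNAs are small RNAs bound by PIWI proteins in germ cells. In mouse spermatocytes, long single-stranded precursors transcribed from intergenic loci under the control of A-MYB are cut into pachytene piRNAs, which usually begin with U. MILI binds the shorter and MIWI the longer of them, and where the strands are cut against each other (ping-pong), the partners overlap at their 5′ ends by 10 nt and the partner of a read beginning with U has A at its base 10.

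The KO-file table held 54384974 reads and the het-file one had 62773871, and 79.4% and 74.9% of these were 24 to 32 nt long. Of reads of that size, 16.96% in the KO-file table and 16.1% in the het-file table matched an annotated transcript. A count of 3 reads, taken as the floor of detection, equals 0.0552 reads per 1000000 reads of the table (RPM) in the KO-file table and 0.0478 RPM in the het-file table.

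The annotation places Gm49794 (ENSMUSG00000116879.1) on the plus strand at chr17:27354111-27367492 of GRCm38. Exon 1 runs over 10545 nt, from 27354111 to 27364655, and exon 2 over 2494 nt, from 27364999 to 27367492. The first 558 nt overlap Gm49795, a lincRNA gene on the minus strand, and the hairpins annotated as Mir7217 and Mir7218 lie inside exon 1. Positions below count from 1 at the start of the transcript.

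Before their values, these are the reads that carried most of the signal. They are the leading length form of 5 of the starts with most reads, with the first base in capitals (T stands for U), and the start at 4496 is shown in 3 forms because its reads were spread over several lengths.
Start 872, 30 nt: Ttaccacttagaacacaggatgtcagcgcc
Start 1047, 27 nt: Taacagtccactctggcagaagctgac
Start 2025, 28 nt: Tagatggatttagacctctagccagcct
Start 3309, 30 nt: Tgagctctatcgggtttctgaaccctgggc
Start 4496, 26 nt: Taccagttggataatgcacttcctat
Start 4496, 27 nt: Taccagttggataatgcacttcctatt
Start 4496, 31 nt: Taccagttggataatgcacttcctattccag
The first of them, at 27354982 to 27355011, was the top sequence, with 50423 reads in the KO-file table and 52100 in the het-file table. It made up 6.80% and 7.22% of all Gm49794 reads and had 39 places in all, most of them in annotated transcripts of other genes. The remaining starts shown here had a single place, and each of the 10 sequences with most reads began with U.

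Gm49794 reads stood at 13638 RPM in the KO-file table (95% exact interval 13607 to 13669) and 11493 RPM in the het-file table (11467 to 11520). The ratio of KO-file over het-file was 1.19 (1.18 to 1.19), a log2 ratio of 0.25. Of 4552 genes with at least 200 reads in the tables together, the median log2 ratio was 0.20 and the central 90% of genes lay from -0.13 to 0.50, so Gm49794 sat inside the bulk of genes. The share of those genes at or past a log2 ratio of 1 was 0.022% on the higher side and 0.33% on the lower side, and among 1103 genes with at least 1000 reads it was 0% and 0.997%. The size depended on the scale: relative to the reads of 24 to 32 nt the log2 ratio was 0.16, and relative to miRNA reads no difference was left, at -0.0040. Reads matching the locus are counted in full here, whatever their number of places. They were 1.72% of all 24 to 32 nt reads in the KO-file table and 1.53% in the het-file table. Of the reads that matched a transcript they were 10.1% and 9.53%. Shared over their places, they came to 613966 KO-file and 596372 het-file reads. In these bulk libraries, fewer cells of a type and less RNA per cell cannot be told apart.

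Strand and first base were those of a piRNA precursor, as the label has it. Sense reads were 99.5% of the total in the KO-file table (99.4% to 99.5%) and 99.4% in the het-file table (99.4% to 99.4%). U was the first base of 90.4% of KO-file and 90.1% of het-file reads, against 23.7% of the bases of the transcript and 78.8% and 73.6% of all reads of this size. Counted once per distinct sequence, U led 54.9% and 54.5% of them, still above its share of the transcript. The word pachytene was not checked, since 1 age was sampled.

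The length profile of all reads had 2 modes, of which only the one at 27 nt was left among reads with 1 place. Reads of 27 nt made up 18.1% of the KO-file and 17.7% of the het-file reads, and reads of 30 nt made up 18.2% and 18.7%. Between these peaks, reads of 28 and 29 nt were each 13.3% to 13.7% in either table. Of the reads of 30 nt, 50423 of 135055 in the KO-file and 52100 of 135105 in the het-file table were the top sequence, which has 39 places. Among reads with 1 place, 30 nt held 12.1% of KO-file and 12.2% of het-file reads, below the 12.6% at 29 nt in either table, and 27 nt held 20.1% and 19.7%. Among all reads of the tables the 27 nt share was smaller, 12.0% and 11.9%, and the 30 nt share was 19.7% and 18.8%. The 26 to 28 nt class held 45.7% of KO-file and 45.0% of het-file Gm49794 reads, and the 29 to 31 nt class held 39.2% and 39.5%. U was most frequent as first base at 30 nt, with 94.8% and 94.7%, and least frequent at 32 nt, with 87.3% and 87.1%.

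Reads shorter than piRNAs were scarce at the locus. At 18 to 23 nt, Gm49794 had 42298 reads in the KO-file table and 48692 in the het-file table, 5.40% and 6.32% of its reads from 18 to 32 nt. Their ratio in RPM was 1.003 (0.990 to 1.02), below that of the 24 to 32 nt reads. They too began mostly with U, 87.6% in the KO-file and 87.1% in the het-file table. Reads of 19 nt were an exception, with U first in 51.9% of KO-file and 52.6% of het-file reads. Of these, 85.1% and 84.9% were sense.

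Reads were heaped on the 5′ part of the transcript. Divided into 10 equal parts from the 5′ end, the transcript gave 26.6%, 14.6%, 14.5% and 25.1% of the KO-file sense reads in its first 4 parts, and 26.3%, 15.7%, 14.1% and 24.1% of the het-file ones. The share then declined to 8.58% and 8.69% in the fifth part and to 0.357% and 0.428% in the last. From the 5′ end, 50% of sense reads had been passed at position 3309 in either table, and 90% at position 6793 in the KO-file and 7021 in the het-file table. Exon 1 carried 98.6% of KO-file and 98.5% of het-file sense reads. Reads across the exon junction were few, 59 and 62, and came from 43 distinct sequences, all with 1 place. Among annotated transcripts their sequence occurs only where the exons are joined, and the genome was not searched for it. U was first in 45.8% and 37.1% of them, against 90.7% and 90.4% of exon 1 sense reads.

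The 5′-most stretch was also the least unique. Over the locus, 80.7% of KO-file and 80.6% of het-file reads had 1 place among annotated transcripts. In the first part of the transcript these were few: among reads with 1 place, that part held 9.49% of the KO-file and 9.17% of the het-file reads, and the fourth part became the largest, with 30.97% and 29.7%. The 100-nt window from position 801 had the highest count, 90633 reads in the KO-file and 90576 in the het-file table, and 99.6% of them matched several places. How many of those reads came from Gm49794 and how many from its copies was not tested. Without them, the position passed by 50% of reads moved to 4110 in either table.

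**Figure D1:**
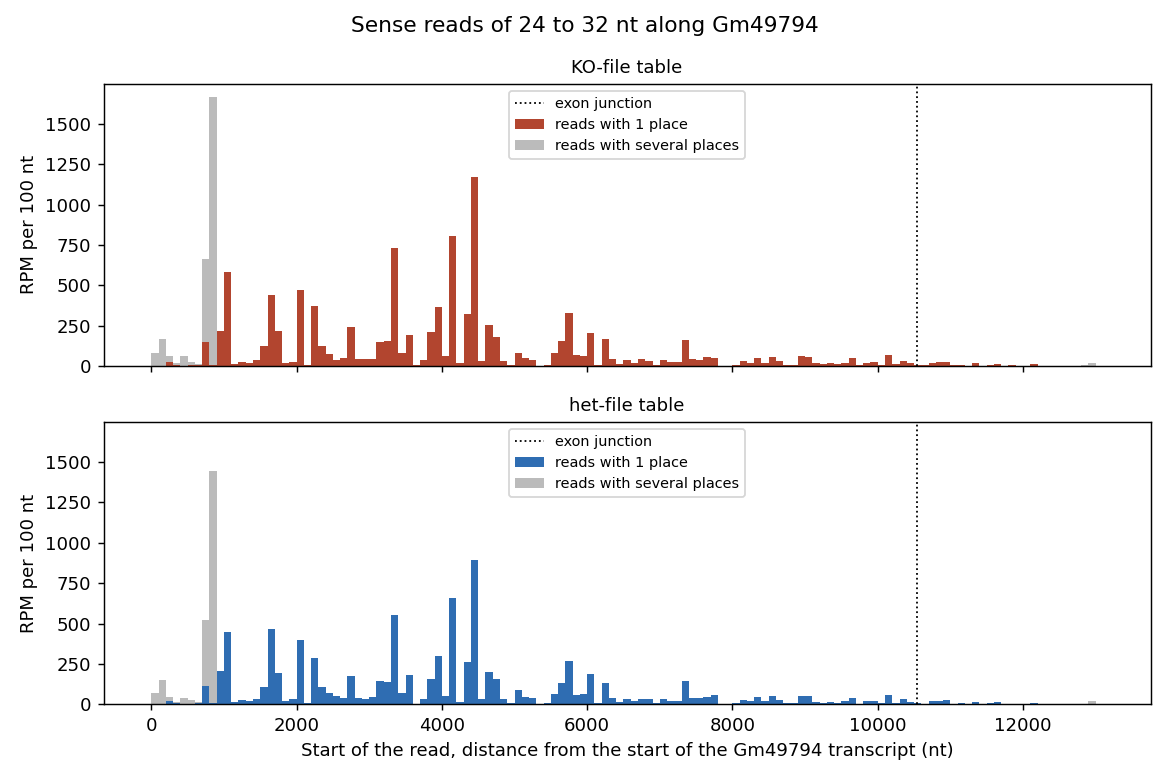
Sense reads of 24 to 32 nt by the position of their start, in RPM per 100 nt of transcript, with the KO-file table above and the het-file table below. Coloured bars are reads with 1 place and grey bars reads with several; the tallest bar, at 801 to 900 nt, is nearly all grey, the tallest coloured bars stand between 3300 and 4500 nt, and little is left beyond the exon junction at 10545 nt.

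Within this profile, reads came from a small number of starts. Sense starts were found at 5750 positions in the KO-file and 5857 positions in the het-file table, which is 44.1% and 44.9% of all positions. The 10 leading starts nevertheless held 34.1% of KO-file and 32.1% of het-file sense reads, and 31 starts in the KO-file and 35 in the het-file table sufficed for 50%. By sequence, the 10 leading ones held 20.5% and 19.7%, and 98 and 111 sequences sufficed for 50%. Of the 26249 distinct sequences, 14266 were seen in both tables, and these held 99.0% of KO-file and 98.8% of het-file reads.

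Strong starts were mostly at a U. Of 3087 U positions in the transcript, 24.3% had at least 100 reads in the tables together, against 1.84% of the 9952 other positions. All of the 10 starts with most reads were at a U. Among 202 starts with at least 1000 reads, 185 were at a U and 17 were not.

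The strongest pair of starts were alike in size and unlike in form. The start at 872 had 57618 reads in the KO-file and 58217 in the het-file table, or 1059 and 927 RPM. The start at 4496 had 57534 and 50668 reads, or 1058 and 807 RPM. At 872, 88.5% of reads were 30 nt long, whereas at 4496 the commonest length, 27 nt, held 26.96% and 26 nt held 23.8%. Every read of 872 matched several places and every read of 4496 only one.

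The other leading starts fell between these extremes. Start 1047 (24564 reads in the KO-file and 21367 in the het-file table) had 65.4% of its reads at 27 nt and 18.2% at 30 nt. Start 2025 (16969 and 15283 reads) had 87.5% at 28 nt. Start 873, 1 nt downstream of the leading start, had 11735 and 11538 reads, with 87.1% at 29 nt, so the main forms of the adjacent starts share the end at position 901. Starts 3307 and 3309, and likewise 4110 and 4123, were further close neighbours, and each of these had between 12144 and 18827 reads in either table. Start 760, with 16749 and 15297 reads, completes the 10 and, like 872 and 873, had several places.

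**Figure D2:**
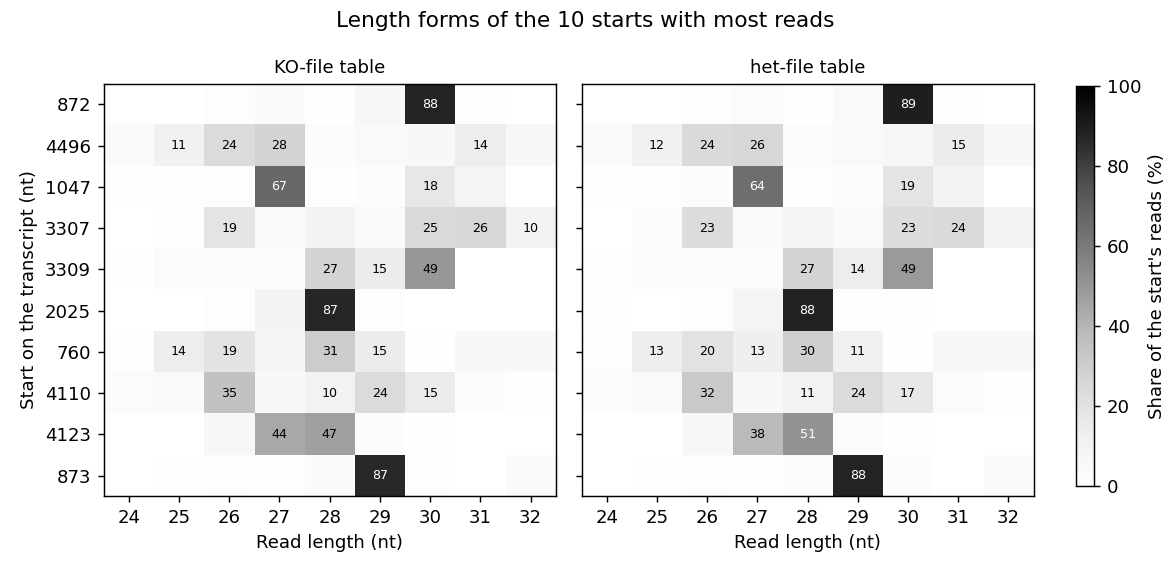
Share of each start's reads at each length, for the 10 starts with most reads, with the KO-file table at left and the het-file table at right; shares of at least 10% are printed. Starts 872, 2025 and 873 have 1 dark cell each, start 4496 is spread over 25 to 31 nt, and the panels look alike.

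Across the 202 starts with at least 1000 reads, the commonest length was 26 to 28 nt for 94 and 29 to 31 nt for 79. It was the same length in both tables for 189 of them. By single lengths it was 27 nt for 45 starts, 29 nt for 32, 30 nt for 29, 28 nt for 25 and 26 nt for 24, so the 30 nt peak of the locus was not a peak in the number of starts. Of the 202 starts, 86 had over 50% of their reads in the 26 to 28 nt class and 73 in the 29 to 31 nt class. By commonest length, the 94 and the 79 starts had nearly the same median log2 ratio between the tables, 0.24 and 0.23.

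Reads were more uniform at their 5′ ends than at their 3′ ends. A start with at least 1000 reads had 48.7% of its reads at its main end (median of 200 starts), and 5 starts had over 90%. An end with at least 1000 reads had 82.3% of its reads from its main start (median of 217 ends), and 89 ends had over 90%. The transcript base after the 3′ end was A for 30.9% of reads in either table, against 24.2% of transcript bases. Counted once per distinct sequence, A followed 25.04%, near its share of the transcript. The end at 901 alone, followed by A and reached mainly from start 872, held 67323 KO-file and 68897 het-file reads. Whether A was in excess without that end was not tested. U followed 24.1% of KO-file and 24.2% of het-file reads, close to the 23.7% of the transcript. Ends of reads were paired with every start within 20 nt downstream, not only with the nearest. Weighted by the product of their reads, these pairs peaked at 2 nt, with 16.2% of KO-file and 13.1% of het-file pairs. Much of this peak came from the ends at 4494 and 1045, which lie 2 nt before the leading starts 4496 and 1047. End 4494 had 800 KO-file and 541 het-file reads, and end 1045 had 1437 and 1374. Counted once per pair of positions, 2 nt had 5.68% of pairs, near the 5.03% at 1 nt and 5.63% at 3 nt, so the peak was in the count weighted by reads.

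Many reads differed from the transcript by an extra U at their 3′ end. Reads with no exact match to any transcript and 1 mismatch to Gm49794 numbered 127459 in the KO-file and 127014 in the het-file table. The mismatch was at the last base in 75.9% and 76.7% of them, and that last base was U in 90.05% and 89.3%. The base before the last had only 3641 and 3846 mismatched reads. Such a U can be seen only where the transcript itself does not go on with U. For bodies of 24 to 31 nt with 1 place and another base next, 14.1% of KO-file reads (14.0% to 14.2%) and 14.5% of het-file reads (14.4% to 14.6%) carried the extra U.

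The extra U was far from evenly spread. Among 290 combinations of start and body length with at least 500 reads, the share with it had a median of 5.24% in the KO-file and 5.48% in the het-file table, and ran up to 93.5% and 94.1%. It was at least 50% in 19 forms in both tables, and under 5% in 128 forms in both. The 28 nt body at start 2025 had it in 0.0746% of KO-file and 0.0740% of het-file reads, with 11 extended and 14729 plain reads in the KO-file table and 10 and 13505 in the het-file table. The 28 nt body at start 3307 had it in 83.4% of reads in either table, with 8922 extended and 1779 plain reads in the KO-file table and 7885 and 1573 in the het-file table. Bodies of starts 3307 and 3309 that end at the same base were alike at some ends and unlike at another. The 28 nt body of 3307 and the 26 nt body of 3309 carried the U in 83.4% and 75.3% of KO-file and 83.4% and 73.0% of het-file reads. The 29 nt and 27 nt bodies, ending 1 base further on, carried it in 65.5% and 69.1% of KO-file and 66.5% and 69.2% of het-file reads. One base beyond that, the 30 nt body of 3307 carried it in 40.9% of KO-file and 39.1% of het-file reads, and the 28 nt body of 3309 in 3.58% and 3.20%. At start 4110, the 27 nt body had it in 72.1% of KO-file and 68.7% of het-file reads, and the 26 nt body in 3.804% and 4.89%. By body length the share was lowest at 24 nt, 6.33% and 6.67%, and highest at 30 nt, 18.5% in either table.

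The linker given in the labels also begins with T. Its next base is G. A body was followed by UG in 30 KO-file and 39 het-file reads, and by UU in 7528 and 8271. Whether linker bases were left on the reads was not tested. Reads left with exactly 1 linker base cannot be told apart from those with an added U. Whether a genome copy outside the annotated transcripts reads U at these positions was not tested.

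**Figure D3:**
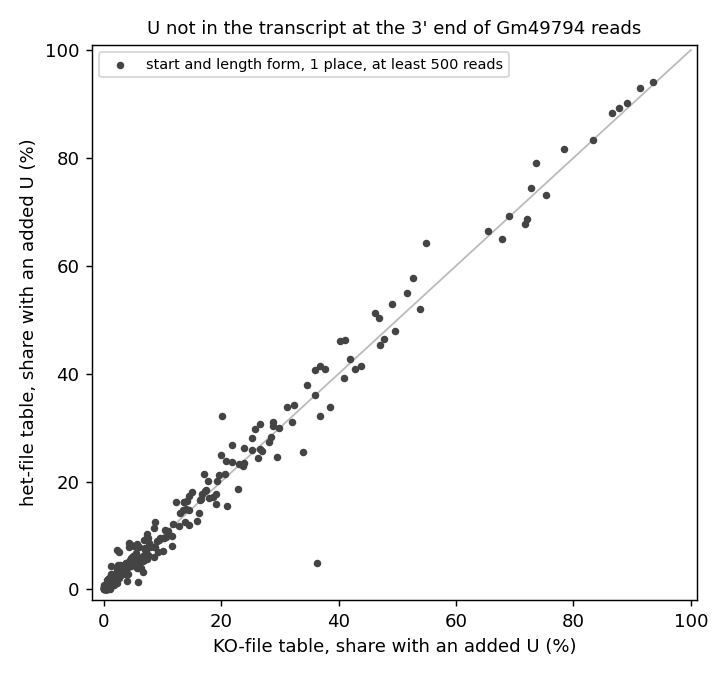
Share of reads with a U that the transcript does not have after the body, for 290 combinations of start and body length with 1 place and at least 500 reads, with the KO-file table on the horizontal axis and the het-file table on the vertical one. Most points lie near the diagonal, and the point farthest from it is the 30 nt body at start 2542, at 36.4% in the KO-file and 4.88% in the het-file table. That form had few KO-file reads, 28 plain and 16 extended, against 604 and 31 in the het-file table.

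Antisense reads were rare, 3992 in the KO-file and 4291 in the het-file table. Of these, 1840 and 1894 lay in the stretch shared with Gm49795, and 2152 and 2397 beyond it. With 1 place there were 1066 and 1182. They differed from the sense reads in both diagnostic bases: U was first in 54.0% of KO-file and 55.2% of het-file antisense reads, and A stood at base 10 in 79.0% and 79.5%, against 30.4% and 31.03% of sense reads. Among antisense reads with 1 place, A stood at base 10 in 83.6% of KO-file and 83.5% of het-file reads.

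Weighted by reads, the commonest overlap of antisense with sense reads was 10 nt, the spacing of ping-pong partners. Of all sense and antisense read pairs that overlapped by 1 to 20 nt at their 5′ parts, 37.8% in the KO-file and 41.9% in the het-file table overlapped by 10 nt. One antisense start carried much of this: at 881 it had 467 and 602 reads, opposite the leading sense start at 872, and without it the 10 nt share dropped to 7.42% and 8.33%. Both members of that pair have many places. Reads with 1 place gave 48.9% and 52.5% at 10 nt, and 49.2% and 52.7% without their own leading start at 3063. Start 3063 was their antisense start with most reads, and whether a few other pairs carried that share was not tested. Counting each pair of positions once, 10 nt had 731 pairs, 6.06% of those from 1 to 20 nt, beside 607 at 9 nt and 626 at 11 nt. The leading pair among all reads and that of the antisense start with most reads of 1 place are printed with the 10 overlapping bases in capitals, each read 5′ to 3′, so that the capitals of one are the reverse complement of the other.
Sense 872: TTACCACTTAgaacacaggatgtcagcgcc
Antisense 881: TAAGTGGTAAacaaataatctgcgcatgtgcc
Sense 3054: TAGTCATCTAtagtcctaatgccc
Antisense 3063: TAGATGACTAtatcctctggcacccaacc
At the unique pair, the antisense start 3063 had 102 reads in the KO-file and 136 in the het-file table, and the sense start 3054 had 804 and 1069. All reads printed in these pairs begin with U, so the 10 nt overlap by itself puts A at base 10 of each partner. The single antisense sequence with most reads was a different one, starting at 217, with 141 and 190 reads. It began with C, and the sense start that would pair with it had 15 and 16 reads.
Top antisense, 30 nt: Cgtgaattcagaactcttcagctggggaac

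**Figure D4:**
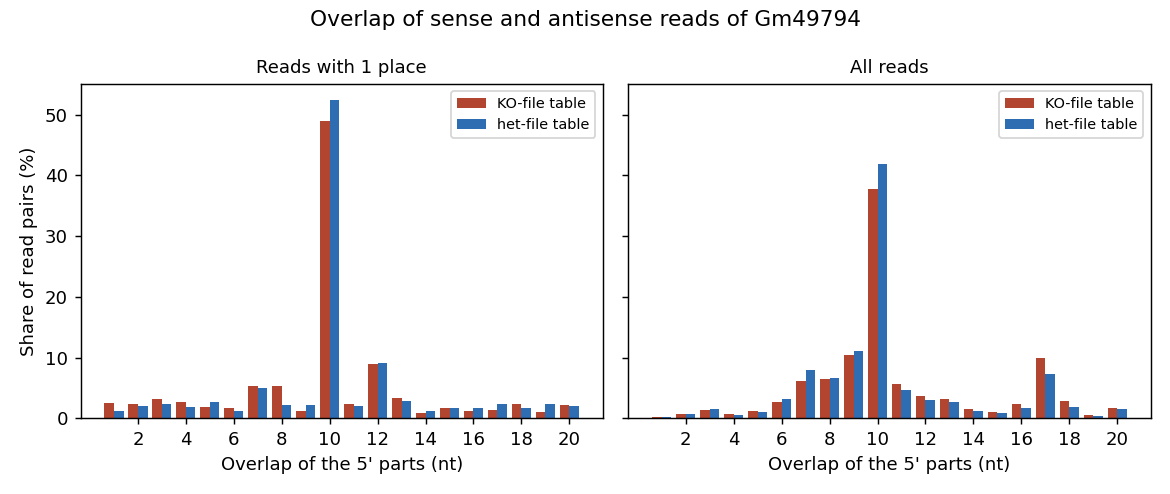
Share of sense and antisense read pairs at each overlap of their 5′ parts from 1 to 20 nt, for reads with 1 place at left and all reads at right, with KO-file bars left of het-file bars. The 10 nt bars reach 48.9% and 52.5% for reads with 1 place, and 37.8% and 41.9% for all reads.

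The tables gave nearly the same picture start by start. Over the 202 starts with at least 1000 reads the median log2 ratio of KO-file over het-file was 0.22, and 148 of them lay within 0.25 of it. The central 90% lay from -0.23 to 0.59. As a description over starts of the same 2 libraries, which are not independent, the Spearman correlation of their reads was 0.945. Counting error did not cover all of the spread: for 120 starts the interval of the ratio left out that of the locus as a whole. At or past a log2 ratio of 1 were 3 starts on the higher side and 1 on the lower, which is 1.49% and 0.495% of these starts. Of 933 starts with at least 100 reads, 7 were past it on the higher side and 5 on the lower, or 0.75% and 0.536%. The start at 872 was among the less raised of the leading ones, with a log2 ratio of 0.19, against 0.33 to 0.50 at the other leading starts apart from 873, which had 0.23.

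**Figure D5:**
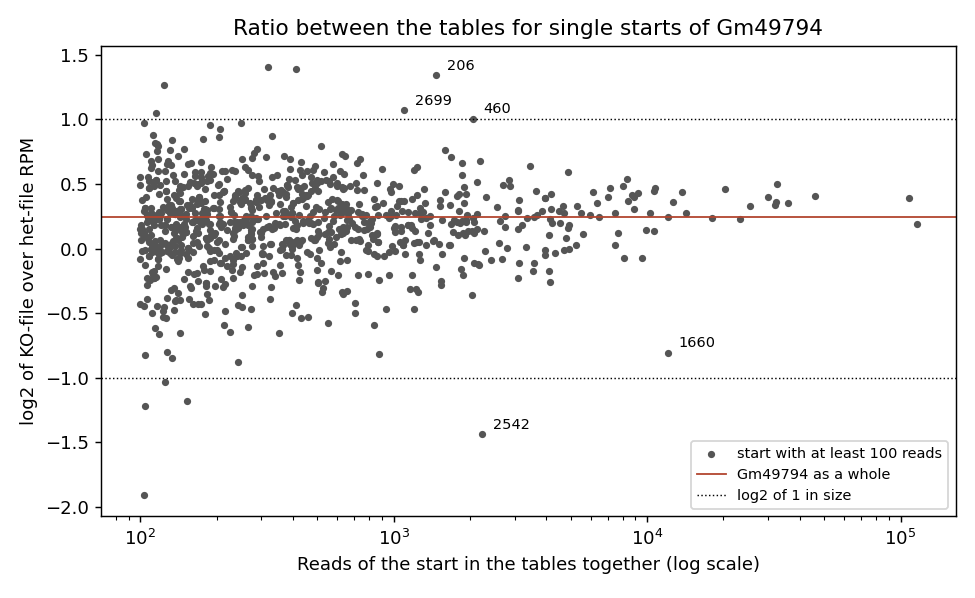
Log2 ratio of KO-file over het-file RPM for each of 933 sense starts with at least 100 reads, against the reads of the start in the tables together on a log axis. The red line is the locus as a whole at 0.25. Starts 1660 and 2542 lie far below the others of their size. Of starts with at least 1000 reads, 206, 2699 and 460 lie above 1.

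Several starts departed from the rest, and they were picked out after their values were seen. Start 1660 had 4003 reads in the KO-file and 8090 in the het-file table, a ratio of 0.571 and a log2 ratio of -0.81. Each of its 14 length forms from 19 to 32 nt with at least 50 reads was lower in the KO-file table, with log2 ratios from -1.35 to -0.59. With reads of 1 mismatch added the log2 ratio was -0.82. The start lies in the Mir7217 hairpin, which holds positions 1628 to 1689.
Start 1660, 27 nt: Tacggccctgagaacccacaagcaaga

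Start 2542 was low for another set of forms. It had 541 reads in the KO-file and 1694 in the het-file table, a log2 ratio of -1.44. Its 29 nt form was higher in the KO-file table, 316 against 275 reads, while the 30 nt form had 28 against 604 reads and the 31 nt form 3 against 583. Reads with 1 mismatch changed this balance. At 30 nt there were 374 such reads in the KO-file and 212 in the het-file table, of which 306 and 125 carried T20G, counted from 1 at the 5′ end of the read with the transcript's base first. At 31 nt they numbered 46 and 305, of which 16 and 165 carried T20G, so there it was commoner in the het-file table. With them the log2 ratio of the start was -0.68 and that of its 30 nt form -0.81, so the low exact count at 30 nt was matched by many KO-file reads with another base at position 20, whereas the 31 nt form remained low at -3.96. The cause was not tested.
Start 2542, 30 nt: Taggtactgtcgtggcaggtggccacgtgc

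Among starts with at least 1000 reads, those above a log2 ratio of 1 were 206 (1013 reads in the KO-file and 461 in the het-file table), 2699 (712 and 391) and 460 (1301 and 747). Their log2 ratios were 1.34, 1.07 and 1.01. Start 206 has 11 places and start 460 has 3, and only 2699 has a single one. At 2699 the 30 nt form had a log2 ratio of 1.47, and the 31 and 32 nt forms had 0.51 and 0.55.
Start 206, 31 nt: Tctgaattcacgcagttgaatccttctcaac

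The annotated miRNA hairpins inside exon 1 gave mostly reads of piRNA size. Over the Mir7217 hairpin, at 27355738 to 27355799, there were 11334 reads of 18 to 32 nt in the KO-file and 17804 in the het-file table, and 93.3% and 92.2% of them were 24 to 32 nt. The annotated mature sequences are given from RefSeq (GRCm38.p6) with the seed in capitals.
mmu-miR-7217-5p: aACUUGUAucuugugagacagaagg
mmu-miR-7217-3p: uGAGAACCcacaagcaagaaga
No read had the exact 5p sequence in either table, which allows up to 0.0552 RPM in the KO-file and 0.0478 RPM in the het-file table, and the exact 3p sequence had 147 and 153 reads. The hairpin counts hold only reads lying wholly within it, so longer reads from the 3p start, at position 1668, run past its end and are not in them. Counted over the whole transcript, that start had 1319 reads of 24 to 32 nt in the KO-file and 1784 in the het-file table. Start 1660, described above, alone supplied more reads than both mature forms. At Mir7218 the hairpin had 929 and 970 reads, of which 83.5% and 83.2% were 24 to 32 nt, and the annotated 5p sequence itself had 4 and 13.

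Set beside other leading precursors, measured the same way, Gm49794 had a larger share of its reads in the short class than the 3 compared. Gm21269 on chromosome 7, next in rank with 8657 RPM in the KO-file and 7545 RPM in the het-file table, had 36.7% and 37.7% of reads in the short class of 26 to 28 nt and 52.0% and 50.9% in the class of 29 to 31 nt. 1700001L05Rik on chromosome 15, with 4849 and 4229 RPM, had 42.7% and 42.5% at 26 to 28 nt. Gm18609 on chromosome 6, with 1146 and 955 RPM, had 32.7% and 32.4%, and nearly all of its reads ran antisense to the annotated pseudogene. The shares of U as first base were close, 86.2% to 91.3% in these 3 genes. Reads with 1 place were 88.1% of the Gm18609 reads in either table and at least 98.4% of those of the other two genes, above the Gm49794 share. With 1 library per table none of these differences was tested.

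The genes most like Gm49794 in the joint share of length and first base, by total variation distance over 171 genes with at least 10000 reads, were 4930405N21Rik at 8.96%, Gm10505 at 9.79% and Mlec at 12.6%. Gm10505 is also the nearest abundant neighbour, 9278 nt from Gm49794 on the same strand, with 4776 RPM in the KO-file and 4137 RPM in the het-file table. Its 26 to 28 nt class held 51.1% and 50.4%. Its antisense reads, 3171 and 3262, had A at base 10 in 80.2% and 80.0%, close to the Gm49794 values, whereas those of Gm21269, 8574 and 11369, had it in 60.1% and 57.7%. Further off, Gm49793 on the minus strand had 520 and 439 RPM, with 70.2% and 69.2% of its reads at 26 to 28 nt. Gm49795 had 52913 and 48272 reads, of which 96.7% and 96.2% ran antisense to it, on the strand of Gm49794. Only 4.68% and 4.71% of the Gm49795 reads had 1 place, and shared over places they came to 9234 and 8319. Gm49795 reaches further upstream than Gm49794, and sense reads of Gm49794 in the stretch they share were 22579 and 20851.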

How the data were processed

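Small RNA of 2 samples was sequenced. Per the file contents, each table the authors deposited lists distinct read sequences of 18 to 32 nt with raw counts, not scaled. How reads were trimmed is not given in the sources used here. Both tables are recorded under 1 sample, so they were named by the word in their deposited names. Reads were matched with 0 mismatches to GENCODE M21 transcripts (GRCm38) with bwa 0.7.19. A place is a distinct position among annotated transcripts, and a genome sequence was not used here. Gm49794 reads counted in full, and reads with several positions within it were shared over them. A direct search found 11 further sequences, with 2 KO-file and 12 het-file reads, which were left out. RPM is reads per 1000000 reads of the table. Log2 ratios have KO-file on top, after adding 0.5 reads to either count, and a gene or start is called at 1 or more in size. Shares carry exact Clopper-Pearson and ratios conditional binomial intervals at 95%. The gene, comparison genes and lists were chosen with earlier results of these data known. Named sequences and starts are the 10 with most reads, the top antisense sequence, and others said to be picked later. Counting was tested on simulated data. The software was matplotlib 3.10.9, scipy 1.17.1, pandas 2.3.3 and numpy 2.4.6 under Python 3.11.15.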

Additional observations from a re-analysis of the deposited data

How the results depend on the processing

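No paired analysis was possible because each table is 1 library and no replicate numbers are given. The log2 ratio of the Gm49794 level, 0.25 as reported, was 0.16 relative to reads of 24 to 32 nt, -0.0040 relative to miRNA reads, 0.17 by distinct sequences, 0.24 for reads of 29 to 31 nt, 0.27 for 26 to 28 nt, 0.24 with up to 1 mismatch and 0.23 without the 10 sequences with most reads. Reads with 1 place, reads shared over places and sequences with at least 2 reads moved it by less than counting error. In the KO-file and het-file tables, the sense share was 99.8% and 99.8% for reads with 1 place and 94.6% and 94.5% by distinct sequences. The share beginning with U was 54.9% and 54.5% by distinct sequences, 87.9% and 87.7% without the 10 leading sequences, 92.05% and 91.98% at 29 to 31 nt and 89.1% and 88.6% at 26 to 28 nt. The share at 26 to 28 nt was 43.2% and 42.7% by distinct sequences and 47.2% and 47.0% without the 10 leading sequences, and that at 29 to 31 nt was 30.8% and 31.2%, and 35.0% and 34.7%. The 10 leading items held 34.1% and 32.1% as starts and, as sequences with 1 place, 17.3% and 15.6%. The Spearman correlation of starts was 0.932 from 10 reads and 0.967 from 100 reads. With at least 1000 reads per gene, 0 genes were at or past a log2 ratio of 1 on the higher side and 11 on the lower, 0% and 0.997%. Log2 ratios of the compared precursors moved by less than counting error for reads with 1 place. At 59 and 62 reads, the exon junction was too shallow to show a difference between the tables.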
